A study of Homo sapiens with 6 samples.

Results

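MiR-21 is made from 1 precursor with a 5p and a 3p arm, and miR-590-5p is the miRNA on the array that carries the same seed as miR-21-5p. The 3 miRNAs were chosen by name, hsa-miR-21-5p, hsa-miR-21-3p and hsa-miR-590-5p, as 3 of the 2555 human miRNAs with a probe on the array. The arrays measured total RNA of HuCCT1, an established human cholangiocarcinoma (CCA) cell line, after 72 h with 0 ng/ml TGF-β (control, n = 3) or 10 ng/ml TGF-β (n = 3). TGF-β is a cytokine that induces epithelial-mesenchymal transition (EMT), and the comparison asks whether these miRNAs changed with it. Nothing in the labels says whether the arrays of a group came from separate cultures, so p-values measure the spread between these arrays, which may be technical. HuCCT1 is a single line, and an array reads the RNA of the whole culture, in which fewer cells with a miRNA and less of it per cell cannot be told apart.

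MiR-21 is among the best known oncogenic miRNAs. Its gene lies within the annotated span of VMP1, a membrane protein gene of autophagy, and its 5p arm represses tumor suppressors such as PDCD4 and RECK. In other cells, receptor-regulated SMAD proteins, the signal carriers of the TGF-β receptor, have been found to bind the stem of the primary miR-21 transcript and to promote its cutting by Drosha. The seed, the stretch from base 2 to base 8 that pairs with target mRNAs, largely sets which mRNAs a miRNA can repress. MiR-590 lies within EIF4H, the gene of a translation initiation factor.

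The mature sequences of RefSeq (GRCh38.p14) are shown here because the shared seed is what joins miR-590-5p to miR-21-5p. Capitals mark bases 2 to 8.
miR-21-5p: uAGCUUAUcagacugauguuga
miR-590-5p: gAGCUUAUucauaaaagugcag
MiR-21-5p lies at chr17:59841273-59841294 on the plus strand and miR-590-5p at chr7:74191213-74191234 on the plus strand. Of the 2370 mature names in the RefSeq table, 2 hold this seed, and both have a probe on the array. No further name with a probe and an entry in the table shares even bases 2 to 7. By position, the 2 miRNAs have 8 of 22 bases alike, which are the 7 of the seed and 1 outside it. Compared by position without gaps, the pair thus shares the seed and little else, and shifted alignments were not counted.

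The stem of miR-21 also holds the letters CAGAC, known from other cells as the RNA element that SMAD proteins bind. They are in capitals in the same strand.
miR-21-5p: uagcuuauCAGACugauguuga
These letters run from base 9 to base 13, directly after the seed, and occur 1 time in the MIR21 hairpin and 0 times in the MIR590 hairpin, read on the transcribed strand. They occur in 123 of 1560 hairpins in the table (7.88%). A match is a description of the letters and no evidence that a SMAD protein bound there in these cells.

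Each array gives the brightness of every spot, from which the mean of its 229 blank spots was subtracted. Detection on an array required a brightness over 2 SD above the blank mean. By this rule between 327 and 464 human probes were detected on an array, 292 on all 6 arrays (11.4%) and 2047 on none. Each array was scaled so that the 292 probes had a median of 25, and 323 miRNAs were called expressed, each with detection on the 3 arrays of either group or both. All 5 epithelial miRNAs of the miR-200 family that were looked up were expressed. None of 10 miRNAs known from hepatocytes, blood cells, endothelium or stroma was expressed, and 9 of them were detected on no array. The exception was the leukocyte miRNA miR-223-3p, with a normalized signal of 12.4 on TGF-β array 3, while miR-142-3p, another leukocyte miRNA, was detected on none. Of the 3 miRNAs described here, only miR-21-5p was expressed.

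MiR-21-5p was detected well above the blank spots in every sample, and its group means differed by less than the spread between arrays. Its normalized signals were 669.7, 671.9 and 856.0 in control cells (arrays 1, 2 and 3 in this order here and elsewhere), against 595.1, 543.8 and 976.7 in TGF-β cells. The TGF-β arrays held both the lowest values and the highest one, so the groups overlapped, and array 3 was the highest within each group. The mean was 732.5 ± 106.9 (SD, n = 3) in control cells and 705.2 ± 236.5 (SD, n = 3) in TGF-β cells, a ratio of 0.963. The log2 change was −0.10 (SE 0.26), with an adjusted p of 0.99 in limma over all 323 expressed miRNAs. The 2-sided exact permutation test gave p = 0.80, and with 3 arrays per group no p under 0.10 can be reached. The 95% interval ran from −0.69 to 0.50 on the log2 scale, that is from 0.619-fold to 1.42-fold. These arrays therefore did not detect a change of miR-21-5p, and the interval still holds moderate changes in either direction.

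Over the whole array, 0 of 323 expressed miRNAs (0%) passed the adjusted p in limma, although 21 had an unadjusted p under 0.05. The smallest adjusted p was 0.43. The groups did not overlap for 32 of the 323 (9.91%), and miR-21-5p was not among them. With 3 arrays per group, a share of 0.10 would be apart in either direction if the group made no difference. In absolute size its change was larger than that of 111 of the 323, and the median change of all 323 was 0.01. The SD of miR-21-5p within groups was 0.35 on the log2 scale, against a median of 0.29 over the miRNAs.

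**Figure D1:**
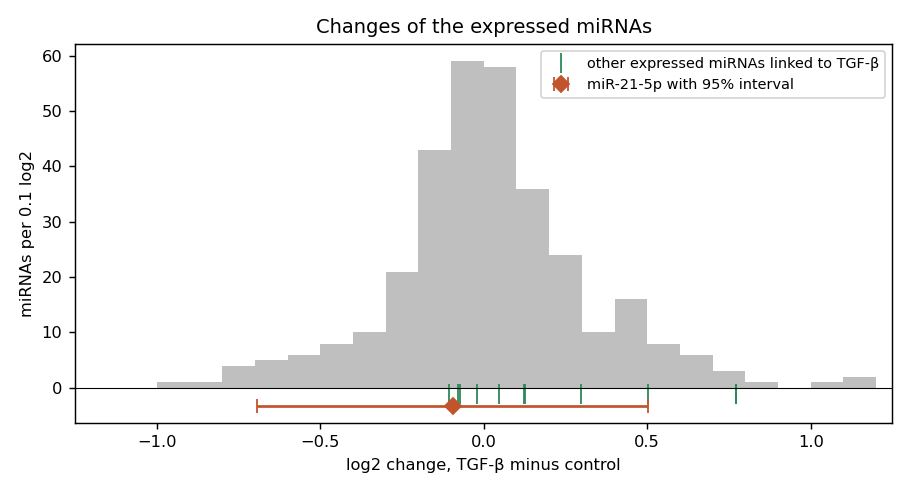
Number of expressed miRNAs (y axis) by their log2 change, TGF-β minus control (x axis), for the 323 expressed miRNAs, with miR-21-5p as a diamond with its 95% interval and the 11 other expressed miRNAs linked to TGF-β as ticks. The change of miR-21-5p, −0.10, lies near the middle of the distribution and its interval from −0.69 to 0.50 crosses 0.

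Both groups carry replicate numbers 1 to 3, and the difference within a number was −0.17 for replicate 1, −0.31 for replicate 2 and 0.19 for replicate 3 on the log2 scale. So miR-21-5p was lower with TGF-β for 2 of the 3 numbers, which no label describes as pairs. TGF-β array 3 was the array on which miR-223-3p was detected, and without it the change of miR-21-5p was −0.40 (SE 0.20, limma adjusted p = 0.44). The part of the miR-223-3p signal in the result was not tested. The estimate rose just above 0 without control array 3, at 0.02, and without TGF-β array 2, at 0.067.

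The deposited scanner files carry 1 of 2 codes. These are called chip 1 and chip 2 here, although no source says what the codes mark. Chip 1 held the 3 control arrays and TGF-β array 1, and chip 2 held TGF-β arrays 2 and 3. With chip as a term, the change of miR-21-5p was −0.29, which rests on TGF-β array 1 alone against the 3 control arrays. Within chip 1 alone, with its arrays scaled by themselves, the change was −0.36. Both values are the same comparison with a lone TGF-β array, so they are not separate checks. Chip 2 held no control array and gave no value of its own.

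The direction of miR-21-5p depended on how the arrays were scaled. The unscaled brightness of its spot was 1343, 2184 and 1488 in control cells, against 2551, 2627 and 2063 in TGF-β cells, all far below the brightest spots of the arrays (42086 to 49035). The blank means were 30.7, 54.8 and 29.5 in control cells, against 82.3, 76.2 and 42.5 in TGF-β cells, so the arrays also differed in overall brightness. After subtraction of the blank mean, and without scaling, miR-21-5p was 1.44-fold higher with TGF-β (2-sided exact permutation test, p = 0.20). Without scaling the median log2 change of all expressed miRNAs was 0.66, and relative to that median the change of miR-21-5p was −0.11, as in the main scaling. A common factor for all probes of an array cannot alter this relative change. The 16 spike control spots had medians of 7530, 14092 and 5602 in control cells, against 23324, 21918 and 8497 in TGF-β cells. Scaled to these spots the change of miR-21-5p was −0.41 (SE 0.36, limma adjusted p = 0.51), with a median of −0.30 over all expressed miRNAs.

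In the authors' normalized values, which are scaled to a median of 25 among the listed miRNAs of an array, miR-21-5p was 1765, 974.7 and 1552.6 in control cells, against 796.2, 1203.4 and 1336.8 in TGF-β cells. The ratio of the means was 0.777 (2-sided exact permutation test, p = 0.40). On this scale the median log2 change of all expressed miRNAs was −0.24, and that of miR-21-5p was −0.12 relative to it. With the own detected probes of each array as the scale, the ratio was 0.798 (2-sided exact permutation test, p = 0.40). In both scalings control array 1, the array with the most detected probes, became the highest for miR-21-5p. The groups overlapped under each of the 4 scalings plotted.

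**Figure D2:**
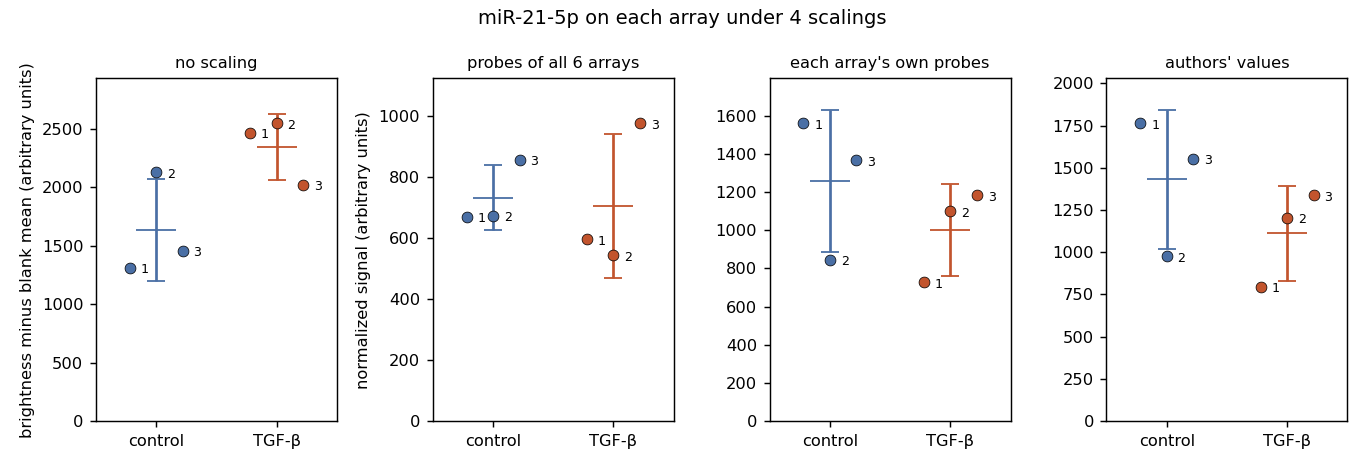
Level of miR-21-5p on each array (points, numbered by replicate) with the mean and SD of 3 arrays (bars), as brightness minus the blank mean without scaling, as normalized signal scaled on the probes detected on all 6 arrays, as normalized signal scaled on each array's own detected probes, and as the authors' normalized values, in arbitrary units. The TGF-β mean lies above the control mean without scaling and below it in the 3 scaled panels, and the groups overlap in all 4.

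The local background deposited beside the spot of miR-21-5p was close to the brightness of the spot itself on 4 of 6 arrays. It was 93.1%, 95.2% and 47.8% of the spot in control cells, against 106%, 96.6% and 75.2% in TGF-β cells. Over all spots of an array, brightness and local background correlated by 0.83 to 0.997 (Pearson, across spots, which are not independent). Subtraction of the local background left a difference below 0 for miR-21-5p on TGF-β array 1. With that value dropped from the fit, the change was −0.19 with a 95% interval from −2.88 to 2.5, against −0.69 to 0.50 with the blank mean.

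**Figure D3:**
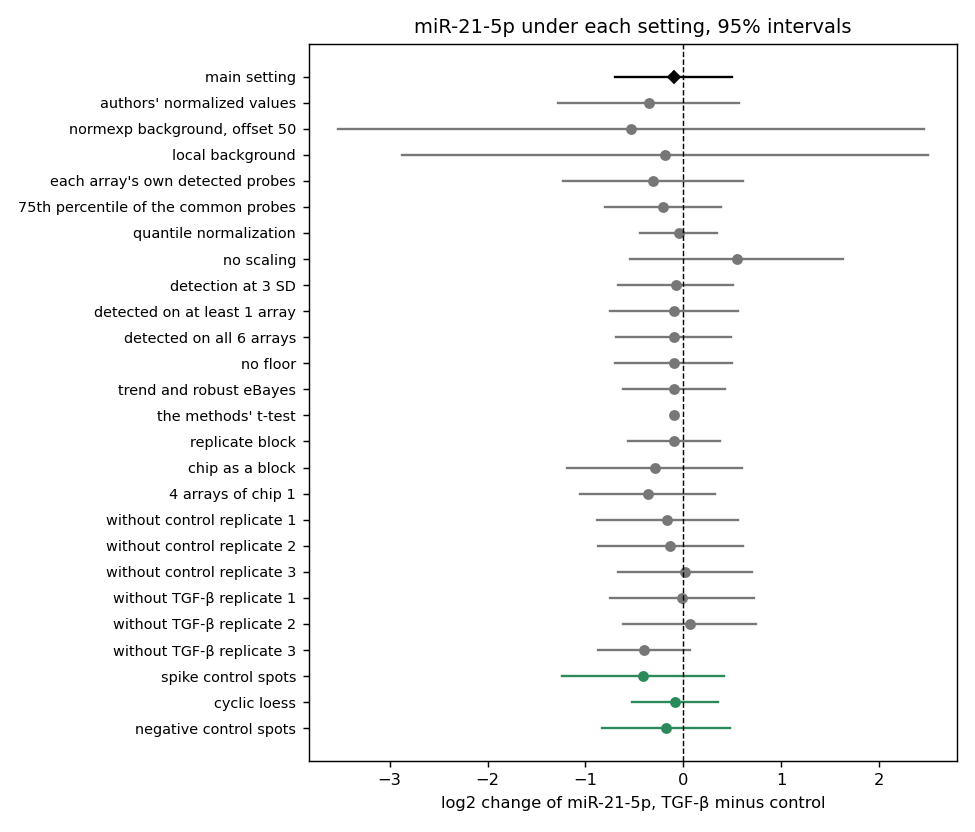
Log2 change of miR-21-5p, TGF-β minus control (x axis), with its 95% interval (lines) for the main setting (diamond), the other settings (grey) and those added after the data were seen (green), with no interval drawn for the methods' t-test. Every interval crosses 0, and the estimates run from −0.53 to 0.55.

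MiR-21-3p was near the detection limit. In cells, this arm is usually degraded after the precursor is cut, although it has targets of its own. Its brightness lay 1.14, 0.17 and −0.99 SD above the blank mean in control cells, against −1.40, 2.27 and 1.47 SD in TGF-β cells. It passed detection on TGF-β array 2 alone, and the authors' table also lists it on that array alone, at 5.3. It was thus below detection on all 3 control arrays and on 2 of the 3 TGF-β arrays, and no fold change was formed. The mean distance from the blank spots was 0.10 ± 1.06 SD of these spots in control cells and 0.78 ± 1.93 in TGF-β cells (SD, n = 3 each). The groups overlapped (2-sided exact permutation test, p = 0.70).

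Whether miR-21-3p counted as detected depended on the spots that set the limit. Against the 24 negative control spots it lay 3.30, 2.80 and 3.64 SD above their mean in control cells, against 1.5, 5.83 and 3.78 in TGF-β cells, so it was detected on 5 of 6 arrays. Against the 178 spots named No Probe it was detected on 3 arrays, which were control array 1 and TGF-β arrays 2 and 3. The negative control rule also detected 443 human probes on all 6 arrays (17.3%), and the No Probe rule 350 (13.7%), so both are laxer than the blank rule for the array as a whole. The blank mean was above the negative control mean on every array, 82.3 against 62.5 on TGF-β array 1. On that array miR-21-3p was brighter than 21 of 24 negative control spots and 18 of 229 blank spots.

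With the negative control spots as background, miR-21-3p had normalized signals of 4.73, 6.24 and 4.34 on the control arrays, and of 8.05 and 10.8 on TGF-β arrays 2 and 3. On TGF-β array 1 it was below detection and was set to that array's lowest detected signal, 4.45. The highest values were both on chip 2, which held no control array. The log2 change was 0.53 (SE 0.33, limma adjusted p = 0.98 over 542 expressed miRNAs, 2-sided exact permutation p = 0.30). With chip as a term the fitted change was −0.18 and within chip 1 alone −0.13. Both rest on TGF-β array 1, the only TGF-β array that shares a chip with controls. Its value is the raised one, so with the other signals as measured they are upper bounds and not tests. The 0.53 over all arrays includes the same raised value.

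The arms of miR-21 were compared by detection with the blank spots, since levels of different probes have no common scale. Detection also carries the unknown brightness of each probe, so it does not rank the arms by their levels in the cells. By the negative control spots miR-21-3p was on 5 of 6 arrays, and the precursors were not recounted by that rule. Of 802 precursors with a probe for each arm, 114 had the 5p arm on all 6 arrays. In 95 of these the 3p arm was on no array, and in 4 it was on 1 array, namely miR-21, miR-361, miR-1343 and miR-4749. In 7 the 3p arm was on 2 to 5 arrays, and in 8 on all 6. The opposite pattern, a 3p arm on all 6 arrays and a 5p arm on 0 or 1, was seen in 38 precursors. MiR-21 was thus one of 99 precursors with a 5p arm on all arrays and a 3p arm on 0 or 1 of them.

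**Figure D4:**
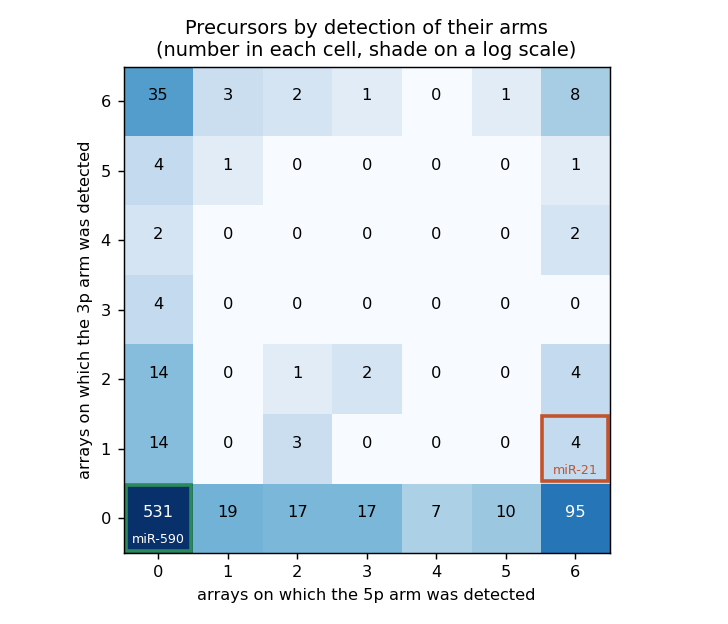
Number of precursors (in each cell, shade on a log scale) by the number of arrays on which the 5p arm (x axis) and the 3p arm (y axis) were detected, for 802 precursors, with the cells of miR-21 and miR-590 framed. MiR-21 sits with 3 others at 6 arrays for 5p and 1 for 3p, and miR-590 among the 531 precursors with neither arm on any array.

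A change in the balance of the arms could be fitted only where each arm was detected on all 6 arrays, which holds for 8 precursors and not for miR-21. Among the 8, 0 (0%) passed the adjusted p in limma and 0 had an unadjusted p under 0.05. With the negative control spots as background, the log2 difference of 5p minus 3p of miR-21 moved by −0.70 from control to TGF-β cells. The difference was 8.13, 7.49 and 8.45 in control cells, against 7.67, 6.94 and 7.35 in TGF-β cells. These numbers carry the unknown brightness of each probe, so only their change has a meaning. The groups overlapped, since TGF-β array 1 lay above control array 2 (2-sided exact permutation test, p = 0.20). The TGF-β array 1 value is a lower bound, as its 3p arm was below detection. With the other signals as measured, the change is therefore −0.70 or less negative. This bound leaves out the spread between arrays and the choice of background spots. The lowest differences, 6.94 and 7.35, were on chip 2, which held no control array. Within chip 1 alone the change was −0.35, from TGF-β array 1 alone and with the same bound.

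MiR-590-5p, the seed relative, was not detected on any array. In SD from the blank mean its brightness lay at −2.18, −1.03 and −3.22 in control cells, against −3.10, −1.94 and −3.10 in TGF-β cells, so all 6 values were below the blank mean. It was detected on 0 of 6 arrays by the blank, the negative control and the No Probe spots, and the authors' table lists it on 0 arrays. Against the negative control spots it lay between −1.77 and 0.87 SD. The groups overlapped (2-sided exact permutation test on the distance from the blank spots, p = 0.70). A level below detection has only an upper bound, so the data do not show that miR-590-5p was missing from the cells. On the normalized scale this bound was 1.83, 4.30 and 2.08 in control cells, against 3.68, 2.09 and 3.85 in TGF-β cells.

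The other arm, miR-590-3p, was also detected on 0 of 6 arrays by the blank spots. Its brightness lay between −2.55 and −1.45 SD from the blank mean. By the negative control spots it was detected on 1 array, control array 3, at 2.25 SD above their mean. Since miR-590-5p was below detection in both groups, no difference between it and miR-21-5p could be tested. Of the pair with the seed AGCUUAU, miR-21-5p is the one the arrays detected in HuCCT1 cells, with or without TGF-β.

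**Figure D5:**
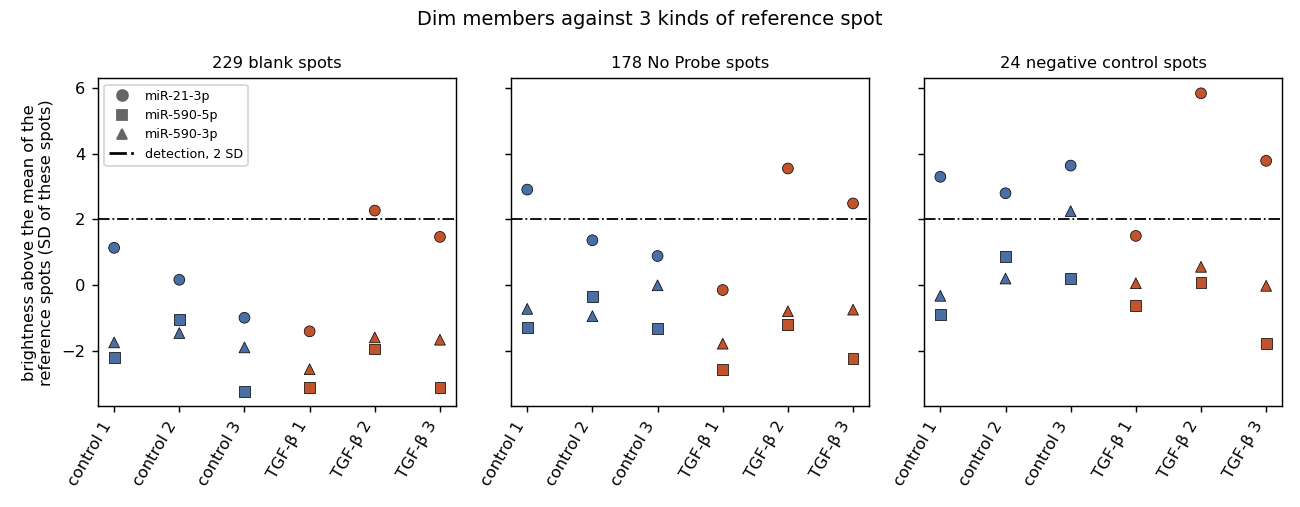
Brightness of miR-21-3p (circles), miR-590-5p (squares) and miR-590-3p (triangles) on each array (x axis, control in blue and TGF-β in orange) in SD above the mean of 229 blank, 178 No Probe or 24 negative control spots (y axis), with the detection limit of 2 SD as a line. MiR-21-3p is above the line on 1, 3 and 5 arrays in the 3 panels, and miR-590-5p on none.

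Among the 291 other miRNAs detected on all 6 arrays, those whose log2 signals followed miR-21-5p most closely over the 6 arrays were miR-4667-5p (Pearson r = 0.985), miR-19b-3p (r = 0.982), a member of the oncogenic miR-17-92 cluster, and miR-29b-3p (r = 0.982), a miRNA that represses collagens. The 6 points share the scaling of their arrays, so r is a description. Each was highest on array 3 of both groups, as miR-21-5p was. For miR-29b-3p, the signal was 39.4, 38.0 and 71.4 in control cells, against 34.7, 31.4 and 84.4 in TGF-β cells. The log2 changes were −0.10 for miR-4667-5p, −0.29 for miR-19b-3p and −0.07 for miR-29b-3p, each with a limma adjusted p of 0.99. No such likeness was computed for miR-21-3p or miR-590-5p, which were below detection.

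Other miRNAs linked to TGF-β or SMAD signalling in other cells were compared with miR-21. Of 21 such miRNAs, both arms of miR-21 included, 12 were expressed and 8 were detected on no array. None of the 12 passed the adjusted p in limma. Their median log2 change was 0.08, against 0.01 for all expressed miRNAs. Over the 8 scalings tried, the number of the 12 above 0 ranged from 3 to 12 with the shift of all miRNAs. Between 6 and 7 of the 12 lay above the median of all expressed miRNAs in each of these scalings. A common factor for all probes of an array cannot move a miRNA relative to that median. Of the 8 scalings, only quantile normalization, cyclic loess and the authors' values could do so.

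The groups did not overlap for 4 of the 12, all higher with TGF-β. Over all 323 expressed miRNAs this held for 23 higher and 9 lower with TGF-β (9.91% in either direction). The list was chosen with earlier results of these data known, so the count is a description. MiR-181a-5p, which represses regulators of T cell signalling among other targets, had signals of 30.7, 32.4 and 35.8 in control cells, against 58.9, 52.4 and 57.3 in TGF-β cells, a log2 change of 0.77 (SE 0.18, limma adjusted p = 0.43). MiR-181b-5p, of the same seed family, had a log2 change of 0.77 (SE 0.21, limma adjusted p = 0.43). MiR-23a-3p had signals of 282.2, 330.1 and 284.8 in control cells, against 441.2, 415.6 and 410.2 in TGF-β cells, a log2 change of 0.50 (SE 0.18, limma adjusted p = 0.67). MiR-200b-3p, which represses the EMT factors ZEB1 and ZEB2, had a log2 change of 0.30 (SE 0.18, limma adjusted p = 0.89). Its signals were 82.9, 103.2 and 86.5 in control cells, against 116.2, 103.8 and 113.5 in TGF-β cells. The highest control and lowest TGF-β signals were thus nearly equal, and whether its groups stay apart under other scalings was not tested. Relative to the median of all expressed miRNAs, the change under the 8 scalings ran from 0.74 to 0.77 for miR-181a-5p, from 0.75 to 0.78 for miR-181b-5p, from 0.34 to 0.49 for miR-23a-3p and from 0.24 to 0.28 for miR-200b-3p. The width of these ranges comes only from quantile normalization, cyclic loess and the authors' values. The other scalings give identical changes relative to the median. The miR-200b-3p change itself was below 0 with the spike control scale, which shifts all miRNAs down. The TGF-β arrays of miR-21-5p instead lay on both sides of its control arrays.

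Of 18 miRNAs described in biliary cancer, miR-21-5p included, 15 were expressed and none of them passed the adjusted p in limma. Their median log2 change was 0.20. Relative to all expressed miRNAs this median was 0.19 higher in the main scaling and 0.06 higher after quantile normalization. For 4 of the 15 the groups were apart, 3 higher and 1 lower with TGF-β, beside 9.91% of all expressed miRNAs in either direction. This list was also chosen with earlier results of these data known. MiR-222-3p, a repressor of the cell cycle inhibitor p27, had a log2 change of 0.45 (SE 0.18, limma adjusted p = 0.69), and miR-31-5p of 0.29 (SE 0.19, limma adjusted p = 0.93). Relative to the median of all expressed miRNAs, miR-31-5p lay between 0.06 and 0.28 under the 8 scalings, and its own change was below 0 with the spike control scale. MiR-200b-3p is on both lists. MiR-224-5p had a log2 change of −0.49 (SE 0.21, limma adjusted p = 0.69). Relative to the median of all expressed miRNAs it lay between −0.51 and −0.49 under the 8 scalings, while without scaling, where all miRNAs shift up, its own change was above 0. As above, only quantile normalization, cyclic loess and the authors' values could move miR-31-5p and miR-224-5p relative to the median.

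The letters CAGAC were then looked up in the hairpins of the expressed miRNAs, a set chosen with the values of these data known. Of the 278 expressed miRNAs with an entry in the RefSeq table, 12 came from a hairpin with these letters, and miR-21-5p was the one miRNA with them in its mature strand. The median log2 change of the 12 was −0.03, beside 0.01 for all expressed miRNAs. For 1 of the 12 (8.33%) the groups were apart, beside 9.91% over all expressed miRNAs.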

How the data were processed

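RNA of HuCCT1 cells was labeled with Cy5 and hybridized by the authors to 6 one-colour 3D-Gene human miRNA arrays, 3 per group, scanned at 635 nm. The authors deposited the median intensity of each spot and of its local background, without normalization, and a table of normalized intensity values scaled to a median of 25 per array with 3D-Gene Extraction software. Its rule for listing a miRNA is not given in the sources used here. Arrays were assigned to groups from their titles.

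From the scanner intensities, the blank mean was subtracted, probes above 2 SD were called detected, arrays were scaled on the probes detected on all 6 (median 25), undetected signals were raised to the lowest detected one of their array, and log2 was taken. Between 0 and 2 human spots per array with a failed quality mark were left out, none of them a spot of the 3 miRNAs. Groups were compared over 323 expressed miRNAs with limma 3.58.1 in R 4.3.3 (lmFit and eBayes, Benjamini-Hochberg adjustment, threshold 0.05), and single values by 2-sided exact permutation tests. The limma step was tested on simulated data. The number of arrays limits the precision. The deviations from the group means correlated by 0.11, 0.27 and 0.34 over 292 miRNAs between arrays of equal replicate number. Arrays of unlike number were not compared in this way, so these values do not establish a pairing. No source says what a number marks. The main fit and the permutation tests took no pairing, and a replicate block was run only as an alternative setting.

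The miRNAs named are the 3 members, miRNAs with the same seed, miR-590-3p, the 3 most alike over the arrays, and those of the TGF-β and biliary cancer lists whose groups did not overlap, as none passed the adjusted p. The members and lists were chosen with earlier results of these data known. Mature sequences were found for 2263 of 2578 miRNA names on the array. Alternatives covered background, scaling, detection, filter, test, block and each array left out. Spike, cyclic loess, negative control and No Probe settings were added after seeing the data.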

Additional observations from a re-analysis of the deposited data

How the results depend on the processing

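The log2 change of miR-21-5p, −0.10 in the main setting, stayed below 0 in 22 of 25 other settings and had an adjusted p of 0.44 to 1 in all 25. The 22 include the settings of filter, floor, test and replicate block. These could not move the change of a miRNA detected on every array, so the count overstates how firmly the sign held. The change was 0.55 without scaling, where the median of all miRNAs moved as well, and ran from −0.40 to 0.067 with 1 array left out, above 0 when control array 3 (0.02) or TGF-β array 2 (0.067) was dropped. It was −0.10 (adjusted p = 0.98) with the replicate block, which changed no call. The cause of the other shifts was not tested. The number of miRNAs called was 0 in 23 of 25 settings, with 6 to 41 at an unadjusted p under 0.05. It was 1 with the methods' t-test (miR-4521) and ran from 0 to 1 with 1 array left out (miR-629-5p without TGF-β array 3), both named after their values were seen. The expressed miRNAs rose from 323 to 508 with detection on any 1 array and to 542 with the negative control spots. MiR-21-3p was detected on 1 array in the main setting, 0 at 3 SD, 3 with the No Probe spots and 5 with the negative control spots, and miR-590-5p on 0 in each. Other settings for the changes of miR-21-3p, of miR-590-5p, of the arms and of miR-21-5p minus miR-590-5p were not run, because these have only bounds in the main setting, and the values of miR-21-3p and of the arms with the negative control spots were added after seeing the data. The brightness of miR-21-5p above the blank mean was 156 to 411 times the 2 SD that detection required, while the other 2 miRNAs lay at or below that limit in the main setting on all arrays but TGF-β array 2 for miR-21-3p.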
